A study of Mus musculus with 4 samples.

Results

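The sarcomere is the contractile unit of striated muscle, and its genes mark the muscle fibres that lie beside a joint. The 40 genes described here encode its thick and thin filaments, its Z-disc and its M-band. They form a named list of fast-fibre, slow-fibre and shared sarcomere genes. This list and the companion lists below were chosen with earlier results of these data known. Their counts beside the share over all genes are therefore descriptions. Of the 40, 39 had a probe set with exactly 1 gene symbol and were measured, among 22180 genes in all. Mybph, a myosin-binding protein gene, was not analysed here. Where a gene had several probe sets, the brightest on average stood for it.

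The 4 samples are Affymetrix MoGene 2.0 ST arrays, and each holds total RNA of 1 pool of synovium, the lining tissue of the joint, taken around the ankle (tibiotalar joint). The mice were C57BL/6J males of 12 weeks. The 2 arthritic pools, of 10 mice each, came from day 10 of serum transfer arthritis, named by the labels as peak inflammation. These mice had received arthritogenic serum from K/BxN mice by intraperitoneal injection, 150 microlitres on each of days 0, 2 and 7. The 2 nonarthritic pools, of 3 mice each, carry the label day 0, and their mice had received phosphate buffered saline by the protocol, although the serum strain label reads K/BxN for these pools too. Pool size and labelled day therefore differ between the groups along with arthritis. The comparison asks how sarcomere genes differ between inflamed and nonarthritic joint tissue, and whether genes of fast and of slow fibres differ alike.

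In a muscle fibre, thick filaments of myosin pull on thin filaments of actin, and calcium permits this by binding the troponin complex, which shifts tropomyosin along the actin. Fast fibres contract quickly and tire early, slow fibres contract slowly and resist fatigue, and many sarcomere proteins come as separate fast and slow isoforms from separate genes. Mouse limb muscles other than the soleus consist mostly of fast fibres. Myosin isoforms called embryonic and perinatal are made in developing and regenerating fibres.

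Values are the authors' RMA signals on the log2 scale. Signals of different probe sets are not on a common scale per transcript length, so a higher signal of 1 gene than of another is not a measure of more transcript. As a guide to background, the 95th percentiles of 1105 olfactory receptor genes were 6.77 and 6.94 on the arthritic arrays and 6.86 and 7.36 on the nonarthritic arrays. Synovial genes read above these percentiles on all 4 arrays. The lubricin gene Prg4 read 13.27 and 13.52 in arthritic pools and 13.66 in each nonarthritic pool. The 12 synovial genes looked at, not all of them genes of the lining, had group means between 8.55 and 13.86. Of these 12, 6 rose, and 3 (Clic5, Htra4 and Cd55) fell. Skeletal muscle is not among the labels of any pool. In RNA from whole tissue, fewer muscle fibres and less sarcomere RNA per fibre cannot be told apart.

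Sarcomere genes were lower in arthritic synovium. Of the 39 measured, 28 fell and 0 rose, by limma at an adjusted p under 0.05, against 6.62% of all genes lower and 8.72% higher. The other 11 did not pass, and 0 were higher at an unadjusted p under 0.05. The median log2 fold change of the 39 was -1.83, against 0.00 over all genes. Of the 28, 27 fell at least 2-fold (3.12% of all genes), 19 at least 4-fold (0.775%) and 10 at least 8-fold (0.216%). Both arthritic pools lay below both nonarthritic pools for 30 of the 39 genes, as for 26.1% of all genes. Among all 22180 genes ordered by fold change, 10 sarcomere genes stood in the 50 with the most negative values and 15 in the first 100. With any 1 pool left out, all 28 values were still negative, but fewer of them passed, as over all genes.

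The fibre classes differed. All 11 fast-fibre genes fell, with a median log2 fold change of -2.73 and a range from -3.82 to -1.52, which is 14.1-fold to 2.86-fold lower. All 13 measured genes used by both fibre types fell as well, with a median of -2.59. These include Myom2, which is typical of fast fibres, and Myom3, which is one of intermediate and slow fibres. Of the 8 slow-fibre genes 2 fell, Mybpc1 and Myoz2, and the median was -0.17. With 1 pool left out, the median ran from -2.87 to -2.44 for fast genes and from -0.30 to -0.05 for slow genes. Fewer fast genes and fewer genes of both fibre types passed in each of these fits. None of the 3 developmental genes passed, and 1, Actc1, was lower at an unadjusted p under 0.05. Of the 4 genes that many other cells express, Des and Tpm2 fell and Tpm1 and Tpm3 did not pass. The classes were assigned from general knowledge of the isoforms, and these counts and medians describe them without a test.

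**Figure D1:**
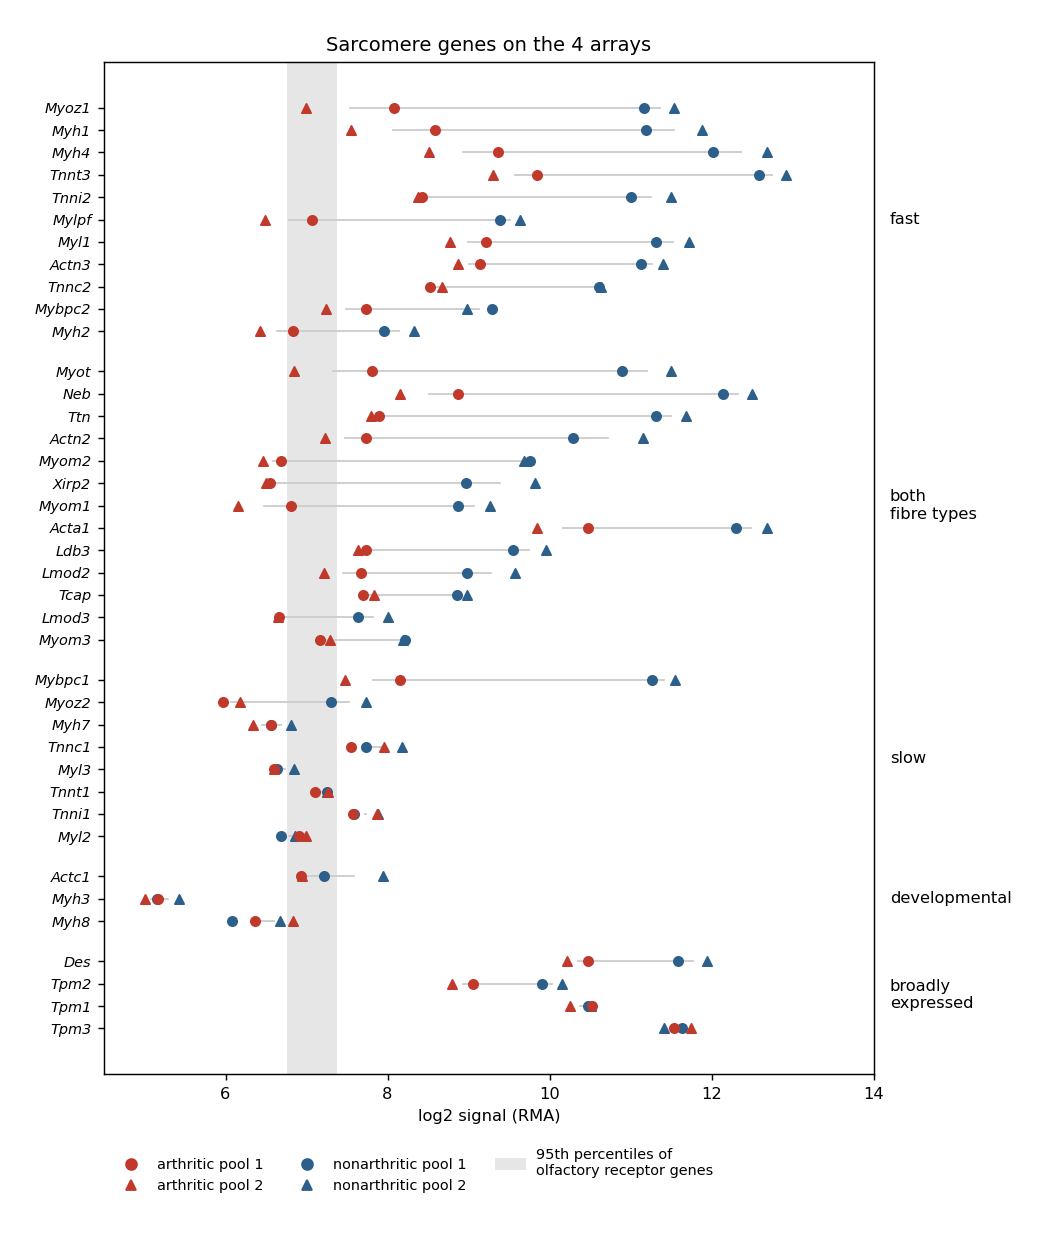
Log2 signal (horizontal axis) of the 39 measured sarcomere genes on each array, with arthritic pools in red, nonarthritic pools in blue, circles for pool 1, triangles for pool 2, and a grey line joining the group means. Red points lie far to the left of blue ones for fast genes and genes of both fibre types, whereas 6 of the 8 slow genes show little distance and sit near the grey band, which spans the 95th percentiles of olfactory receptor genes.

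Promoters of Myh4 and Acta1, which fell, and of Myl3, a slow gene that did not pass, are shown as a description. Myl3 lay under the olfactory percentile on every array, so its missing call does not show that it kept its RNA. Whether promoter motifs have a part in the fall was not tested. The windows are the 200 bases before the start site in RefSeq, build GRCm38.p6, 5′ to 3′, with CArG boxes and CAGCTG in capitals. The CArG box is the site of serum response factor, and CAGCTG is a form of the E-box that myogenic factors bind.
Myh4, fast motor, chr11:67237612-67237811, plus strand: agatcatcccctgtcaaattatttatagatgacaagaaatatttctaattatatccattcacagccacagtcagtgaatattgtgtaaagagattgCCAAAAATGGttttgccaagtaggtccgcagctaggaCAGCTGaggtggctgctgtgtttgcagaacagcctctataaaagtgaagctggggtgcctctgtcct
Acta1, skeletal actin, chr8:123894776-123894975, minus strand: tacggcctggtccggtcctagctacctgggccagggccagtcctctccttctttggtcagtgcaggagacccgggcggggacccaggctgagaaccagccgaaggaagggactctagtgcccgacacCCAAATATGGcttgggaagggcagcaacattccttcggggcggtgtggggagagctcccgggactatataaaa
Myl3, slow light chain, chr9:110763478-110763677, plus strand: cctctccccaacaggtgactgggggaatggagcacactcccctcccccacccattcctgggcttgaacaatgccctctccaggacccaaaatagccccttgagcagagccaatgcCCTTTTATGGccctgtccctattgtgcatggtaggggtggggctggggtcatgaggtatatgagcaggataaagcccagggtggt

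The CArG boxes of Myh4, Acta1 and Myl3 begin 104, 73 and 85 bases before the start site. Of the 39 measured genes, 30 matched the RefSeq promoter table, with 35 promoters, 20 of genes that fell and 15 of genes that did not pass. In windows of 250 bases before the start site, searched on both strands, a CArG box was found in 20.0% of the 35 promoters, against 1.47% of all 32851 promoters. It stood in 5 of the 20 promoters of genes that fell (Acta1, Ldb3, Myh4 and Myom1) and in 2 of the 15 of genes that did not pass (Actc1 and Myl3). CAGCTG was found in 34.3% of the 35, against 13% of all, in 8 of the 20 and 4 of the 15. A MEF2 site was found in 20.0%, against 2.92% of all, in 6 of the 20 and 1 of the 15 (Myh8). The general E-box CANNTG, which contains CAGCTG, was found in 85.7%, against 66.2% of all, in 16 of the 20 and 14 of the 15. TATAAA was found in 22.9%, against 12.4% of all, and CATTCC in 25.7%, against 12.6%. The motifs describe letters in these windows and do not show binding, and promoters of 1 gene can overlap.

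Myosin heavy chains are the motors of the thick filament. Myh4, the motor of the fastest (IIb) fibres, read 9.36 and 8.51 in arthritic pools 1 and 2, against 12.02 and 12.69 in nonarthritic pools 1 and 2. It was 10.7-fold lower (log2 fold change -3.42 ± 0.31 SE, limma adjusted p = 0.000468). Myh1, the motor of IIx fibres, read 8.59 and 7.55 in arthritic pools, against 11.19 and 11.88 in nonarthritic pools. Both genes were low on both arthritic arrays, lowest in arthritic pool 2, and the groups stood apart by more than their own spread. Myh1 was 11.0-fold lower (-3.47 ± 0.35, adjusted p = 0.00069). Myh2, the motor of IIa fibres, which lie between the fast and slow extremes, read 6.83 and 6.43 in arthritic pools, against 7.96 and 8.33 in nonarthritic pools. It fell less, by 1.52 ± 0.20 on the log2 scale (adjusted p = 0.0025), and its arthritic signals lay close to the olfactory percentile in pool 1 and under it in pool 2.

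The slow motor Myh7 read 6.56 and 6.34 in arthritic pools, against 6.56 and 6.81 in nonarthritic pools. Its groups touched, its log2 fold change was -0.23 ± 0.17 (adjusted p = 0.432), and all 4 signals lay in the range of olfactory receptor genes. Myh3, the embryonic motor, read 5.17 and 5.0 in arthritic pools, against 5.15 and 5.43 in nonarthritic pools. Myh8, the perinatal motor, read 6.36 and 6.83 in arthritic pools, against 6.08 and 6.67 in nonarthritic pools. Neither passed (adjusted p = 0.5 for Myh3 and 0.62 for Myh8), and a second probe set of Myh8 gave -0.25 where the first gave 0.22. Signals this low do not show whether the developmental motors were transcribed.

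Myh3, Myh2, Myh1, Myh4, Myh8 and Myh13 follow each other in this order on mouse chromosome 11. Only the 3 adult fast motors in the middle of the row, Myh2, Myh1 and Myh4, fell. Their flanking neighbours Myh3, Myh8 and Myh13 (-0.23 ± 0.18, limma adjusted p = 0.459) did not pass and were at 5.0 to 6.83 on every array. Myh3, Myh8 and Myh13 lay under the olfactory percentile of each array, so their missing calls do not show that they were unchanged. The genes of this row have near-identical copies in it and can share probes, so the value of any one of them is uncertain for that reason. A like arrangement holds for troponins. Fast Tnni2 and fast Tnnt3 lie on either side of Lsp1, a gene of leukocytes, on chromosome 7, and both troponins fell while Lsp1 rose by 0.69 ± 0.16 on the log2 scale (adjusted p = 0.0229). Slow Tnnt1 with cardiac Tnni3, and slow Tnni1 with cardiac Tnnt2, form the other neighbouring sets, and none of these 4 passed (log2 fold changes from -0.50 to -0.01).

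Myosin light chains stabilise the lever of the motor. Myl1, the fast essential light chain, read 9.21 and 8.77 in arthritic pools, against 11.32 and 11.72 in nonarthritic pools. Mylpf, the fast regulatory light chain, read 7.07 and 6.49 in arthritic pools, against 9.39 and 9.63 in nonarthritic pools. Both fast light chains were low in both arthritic pools without overlap, Myl1 5.78-fold lower (adjusted p = 0.00036) and Mylpf 6.63-fold lower (adjusted p = 0.000319). The slow essential light chain Myl3 read 6.60 on each arthritic array, against 6.63 and 6.84 in nonarthritic pools (-0.13 ± 0.16, adjusted p = 0.652). Myl2, the slow regulatory light chain, read 6.91 and 6.99 in arthritic pools, against 6.69 and 6.86 in nonarthritic pools (0.17 ± 0.16, adjusted p = 0.536). The arthritic pools of Myl2 were slightly above the nonarthritic ones, the only such case among the 39, as for 30.2% of all genes.

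Myosin-binding protein C braces the thick filament and tunes its motors. Mybpc1, named as the slow type although it is also made in fast fibres, read 8.16 and 7.48 in arthritic pools, against 11.27 and 11.55 in nonarthritic pools. It was 12.0-fold lower (-3.59 ± 0.24, adjusted p = 0.000162) and fell most of the slow genes, with a change in the range of the fast ones. Myoz2 was the other slow gene that fell. Mybpc2, the fast type, read 7.73 and 7.24 in arthritic pools, against 9.29 and 8.98 in nonarthritic pools, and was 3.14-fold lower (adjusted p = 0.00194).

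Acta1, the skeletal actin of the thin filament, read 10.48 and 9.84 in arthritic pools, against 12.30 and 12.68 in nonarthritic pools. It was 5.03-fold lower (-2.33 ± 0.24, adjusted p = 0.00077) and kept the highest arthritic signal of all genes used by both fibre types. Actins have nearly the same coding sequence, and the cytoplasmic actins Actb (0.84 ± 0.15) and Actg1 (1.20 ± 0.22) rose, and whether Acta1 and these genes share probe signal was not tested. Actc1, the actin of heart and of developing muscle, read 6.93 and 6.94 in arthritic pools, against 7.21 and 7.94 in nonarthritic pools. The nonarthritic pools were apart from each other here, and Actc1 did not pass (-0.64 ± 0.24, adjusted p = 0.116).

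Neb encodes nebulin, the giant protein that runs along the thin filament. It read 8.87 and 8.15 in arthritic pools, against 12.14 and 12.50 in nonarthritic pools, and was 14-fold lower (-3.81 ± 0.25, adjusted p = 0.00016). The leiomodins Lmod2 and Lmod3, which help to build thin filaments, fell too, Lmod2 3.56-fold. Lmod3 read 6.66 and 6.65 in arthritic pools, against 7.64 and 8.0 in nonarthritic pools, 2.24-fold lower. Both arthritic signals of Lmod3 lay under the olfactory percentiles, so the size of its fall is uncertain.

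Troponin T, I and C form the calcium switch of the thin filament. Tnnt3, the fast troponin T, had the highest nonarthritic signal of the list and read 9.85 and 9.30 in arthritic pools, against 12.59 and 12.92 in nonarthritic pools (9.06-fold lower, adjusted p = 0.000178). Tnni2, the fast inhibitory subunit, read 8.43 and 8.38 in arthritic pools, against 11.01 and 11.50 in nonarthritic pools (7.21-fold lower, adjusted p = 0.000178). Tnnc2, the fast calcium-binding subunit, read 8.53 and 8.67 in arthritic pools, against 10.61 and 10.63 in nonarthritic pools (4.06-fold lower, adjusted p = 0.000272). The groups of each fast troponin were far apart, with the arthritic signals still above the olfactory percentiles.

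The slow troponins did not pass. Tnnt1 read 7.11 and 7.26 in arthritic pools, against 7.25 on each nonarthritic array (-0.06 ± 0.16, adjusted p = 0.84). Tnni1 read 7.57 and 7.87 in arthritic pools, against 7.59 and 7.88 in nonarthritic pools (-0.01 ± 0.18, adjusted p = 0.971). Tnnc1, which heart also uses, read 7.55 and 7.96 in arthritic pools, against 7.73 and 8.18 in nonarthritic pools (-0.20 ± 0.22, adjusted p = 0.611). In all 3 slow troponins the groups overlapped, and the spread of the arthritic pools was wider than the distance between groups.

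Tropomyosins, the strands that cover actin, split. Tpm2, made in muscle of several kinds, read 9.06 and 8.80 in arthritic pools, against 9.91 and 10.15 in nonarthritic pools, and fell by 1.10 ± 0.18 on the log2 scale (adjusted p = 0.00533). Tpm1 and Tpm3, which also give cytoskeletal forms in most cells, had log2 fold changes of -0.11 ± 0.17 (adjusted p = 0.731) and 0.11 ± 0.17 (adjusted p = 0.724). Their signals were between 10.25 and 11.74 on every array, well above the olfactory percentiles.

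Titin, the spring that spans from Z-disc to M-band, and the myomesins that crosslink thick filaments at the M-band all fell. Ttn read 7.89 and 7.79 in arthritic pools, against 11.31 and 11.69 in nonarthritic pools, and was 12.6-fold lower (-3.66 ± 0.18, adjusted p = 7.77e-05). Myom2, a myomesin typical of fast fibres, read 6.69 and 6.46 in arthritic pools, against 9.76 and 9.68 in nonarthritic pools. It was 8.85-fold lower (adjusted p = 7.77e-05). Each arthritic signal of Myom2 lay under the olfactory percentile of its array, so the size of its fall is uncertain. Myom1 was 6.02-fold lower, and Myom3, a myomesin of intermediate and slow fibres, only 1.96-fold lower (-0.97 ± 0.16, limma adjusted p = 0.00533). In arthritic pool 2 Myom1 read 6.15, under the olfactory percentile, so the size of its fall is uncertain too.

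All 9 Z-disc genes fell. Myot, which encodes the actin crosslinker myotilin, read 7.81 and 6.85 in arthritic pools, against 10.90 and 11.50 in nonarthritic pools, and had the most negative change of the list (-3.87 ± 0.32, 14.6-fold lower, adjusted p = 0.000357). Myoz1, the calcineurin-binding myozenin of fast fibres, read 8.08 and 6.99 in arthritic pools, against 11.17 and 11.54 in nonarthritic pools (14.1-fold lower, adjusted p = 0.000385). For both genes the arthritic pools stood about as far apart as 1 log2 unit, with pool 2 the lower. In arthritic pool 2 the signal of Myot lay under the olfactory percentile, so the size of its fall is uncertain. Myoz2, the slow partner of Myoz1, read 5.97 and 6.18 in arthritic pools, against 7.30 and 7.74 in nonarthritic pools (2.72-fold lower, adjusted p = 0.0025). Both arthritic signals of Myoz2 lay under the olfactory percentiles, so the size of its fall is uncertain.

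Actn2, the alpha-actinin of all fibres, read 7.73 and 7.23 in arthritic pools, against 10.29 and 11.15 in nonarthritic pools (9.45-fold lower, adjusted p = 0.00046). Actn3, the alpha-actinin confined to fast fibres, read 9.14 and 8.87 in arthritic pools, against 11.13 and 11.40 in nonarthritic pools (4.79-fold lower, adjusted p = 0.000312). Xirp2, an actin-binding repeat protein, was 7.31-fold lower, with both arthritic signals under the olfactory percentiles. Its second, dimmer probe set gave -1.05 where the first gave -2.87. Ldb3, a PDZ and LIM domain protein, was 4.18-fold lower, and Tcap, the cap of titin, 2.23-fold lower. Des, the intermediate filament desmin, which smooth muscle also makes, read 10.48 and 10.22 in arthritic pools, against 11.59 and 11.94 in nonarthritic pools (-1.41 ± 0.19, adjusted p = 0.00232). Another probe set, listed for both Gm15179 and Des, gave -0.08.

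Fast and slow isoforms of the same protein were set against each other in 8 pairs, as the fast minus slow log2 signal within each array. In 7 pairs this difference was smaller in both arthritic pools than in both nonarthritic pools, and in 1, Mybpc2 and Mybpc1, it was larger. For troponin T the difference was 2.74 and 2.04 in arthritic pools, against 5.34 and 5.67 in nonarthritic pools, a shift of -3.11 ± 0.39 (SE). For the heavy chains Myh4 and Myh7 it was 2.80 and 2.17 in arthritic pools, against 5.46 and 5.88 in nonarthritic pools, a shift of -3.19 ± 0.38. The shift was -2.91 ± 0.33 for the regulatory light chains, -2.83 ± 0.20 for troponin I, -2.39 ± 0.24 for the essential light chains, -2.37 ± 0.65 for the myozenins and -1.82 ± 0.25 for troponin C. For myosin-binding protein C it was 1.94 ± 0.31. Both genes of a pair were above the olfactory percentile on all 4 arrays only for troponin I, troponin C and myosin-binding protein C. Myh7 and Myl3 lay at or under it on every array, Myl2 in both nonarthritic pools and Myoz2 in both arthritic pools, so the shifts of those 4 pairs do not measure a difference from a slow gene well above background. With 2 pools against 2, the exact permutation test, two-sided, can give no p under 0.33, and it gave that for every pair (0.33 also when adjusted over the 8 pairs).

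**Figure D2:**
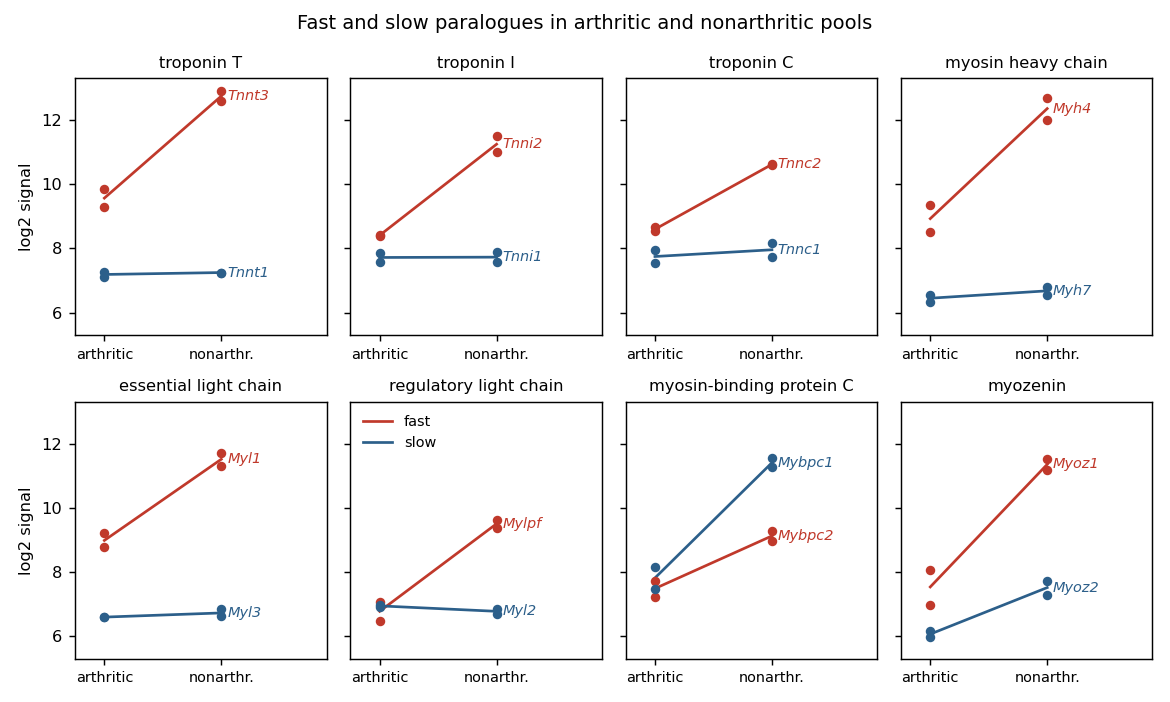
Log2 signal of the fast (red) and slow (blue) gene of 8 paralogue pairs in arthritic pools (left) and nonarthritic pools (right), with a point for each pool and a line between group means. The red lines are steep, with Tnnt3 averaging 9.57 in arthritic pools and 12.75 in nonarthritic pools, while the blue lines are nearly level except for Mybpc1 and Myoz2.

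The slow genes also started low. Without Mybpc1, the 7 slow genes had nonarthritic means from 6.68 to 7.96 and arthritic means from 6.07 to 7.75. The 7 heart genes looked at beside them, such as the atrial and ventricular motor Myh6 and the cardiac troponin I gene Tnni3, had nonarthritic means from 6.33 to 7.97 and arthritic means from 5.93 to 7.50, and none of these passed (median log2 fold change -0.22, with 2 lower, Tnnt2 and Myl7, at an unadjusted p under 0.05). The highest heart value in nonarthritic pools was that of Tnnt2, followed by Tnni3 at 7.67, while slow Tnni1 and Tnnc1 averaged 7.73 and 7.96 there. These are signals of different probe sets and give no order of transcript levels. Of the 39 sarcomere genes, 5 (Myh7, Myh3, Myh8, Myl3 and Myl2) lay at or under the olfactory 95th percentile in both nonarthritic pools. The missing calls of slow genes do not show that slow fibres kept their RNA.

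Across sarcomere genes, the change followed the starting signal. For all 39 measured genes, the signal in nonarthritic pool 1 and the fold change of arthritic pools over nonarthritic pool 2 had a Pearson r of -0.69 and a Spearman rho of -0.65. With the nonarthritic pools exchanged, r was -0.76 and rho -0.75. Without the tropomyosins and Des, which many other cells express, r over the other 35 genes was -0.87 and -0.89, and rho -0.85 and -0.86. Over all 22180 genes r was 0.11 and -0.14 for the same measures. These correlations run across genes of the same 4 arrays and share the arthritic pools, and they are given as descriptions. Of these 35 genes, all 14 with a nonarthritic mean of at least 10 fell (median -3.33), as did all 10 between 8 and 10 (median -1.94) and 2 of the 11 below 8 (median -0.20). Over all genes, 15.8%, 9.49% and 2.68% fell in the same ranges. The trend was not particular to the sarcomere list. Of the muscle triad, calcium-handling and energy genes described below, 16 of 19, 10 of 12 and 1 of 3 fell there. Their medians were -2.63, -1.76 and -0.69. Fibre class and starting signal nearly coincide. Every fast gene had a nonarthritic mean of at least 8.14, and every slow gene other than Mybpc1 had one of at most 7.96. The trend and the contrast of fast with slow genes can therefore hardly be told apart. Genes that start near background have little room to fall, and the part of this in the trend was not tested.

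**Figure D3:**
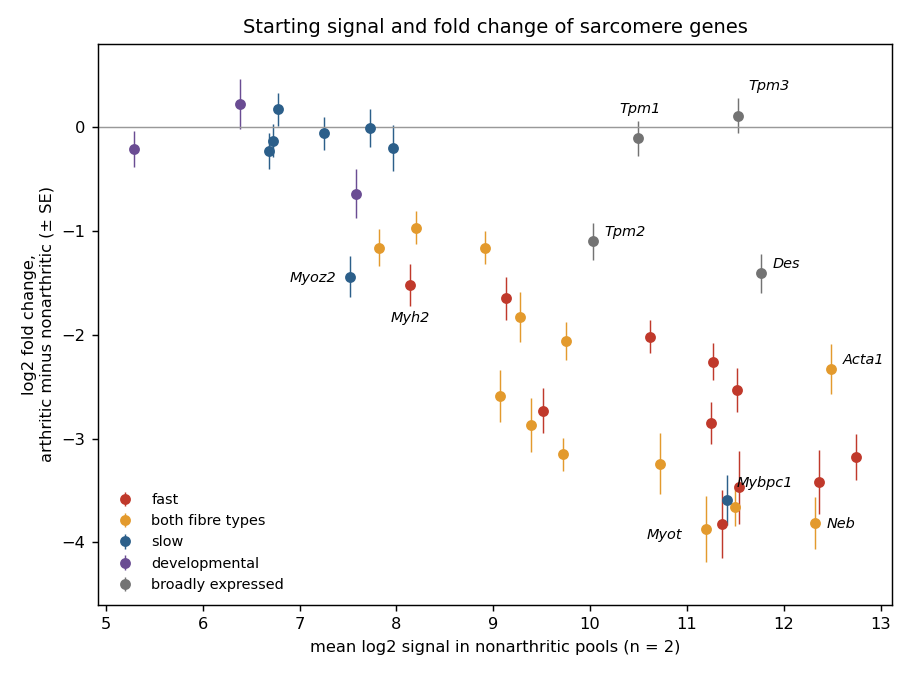
Log2 fold change, arthritic minus nonarthritic, with its SE (vertical axis) against the mean nonarthritic log2 signal (horizontal axis) for the 39 measured sarcomere genes, coloured by fibre class. Apart from the tropomyosins and Des, points lie between 0.22 and -1.44 at signals below 8 and between -2.02 and -3.87 at signals above 10. Tpm1, Tpm3, Tpm2 and Des lie higher at like signals.

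The pools of a group also differed in sarcomere signal. Nonarthritic pool 2 read higher than nonarthritic pool 1 for 34 of the 39 genes, with a median difference of 0.36, while 44.7% of all genes did so. Arthritic pool 1 read higher than arthritic pool 2 for 27 of the 39, and 1 was tied, with a median difference of 0.23, against 48.9% of all genes. These differences between pools of 1 group were small beside the difference between groups for the fast genes, whose mean log2 signal was 8.44 and 7.93 in arthritic pools 1 and 2 and 10.70 and 11.02 in nonarthritic pools 1 and 2.

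Other genes of skeletal muscle fell in the same comparison. In a list of 30 further sarcomere-associated genes, 29 were measured, 21 fell and 1 rose, with a median of -1.23. The largest falls were those of Nrap (-3.29 ± 0.22, adjusted p = 0.00016), Klhl41 (-2.83) and Ankrd23 (-2.33), and Obsl1, a cytoskeletal adaptor gene that is not confined to muscle, rose (1.06 ± 0.16). A further 18 were genes of the triad, where the nerve signal releases calcium, and of calcium handling. Of these, 13 fell and 0 rose (median -1.50). Those that fell included Trdn (-4.37), Casq1 (-3.73), the calcium-handling gene Pvalb (-3.36) and the release channel gene Ryr1 (-2.82). The fast calcium pump Atp2a1 fell (-3.13 ± 0.18), while Atp2a2, the pump of slow fibres, heart and other cells, was at 0.28 ± 0.16 (adjusted p = 0.29). Of 16 genes of muscle energy supply 14 fell and 0 rose (median -2.46), with Ppp1r3a (-3.66), Cox8b (-3.36), Pygm (-3.28) and the creatine kinase gene Ckm (-2.84). With any 1 pool left out, fewer genes of each of these lists passed, as over all genes.

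Genes that control muscle identity changed less uniformly. Of 16 measured regulators 6 fell and 1 rose, with a median of -0.42. Myf6, the myogenic factor of mature fibres, read 7.47 and 6.98 in arthritic pools, against 10.28 and 10.76 in nonarthritic pools (-3.29 ± 0.23, adjusted p = 0.000178). Mef2c (-1.61 ± 0.29), Ppargc1a (-1.61 ± 0.20) and Myod1 (-0.75 ± 0.17) fell and Six4 rose (0.95 ± 0.20). Pax7, which marks muscle stem cells, was at 0.23 ± 0.15 (adjusted p = 0.378) and Myog, the factor of fusing muscle cells, at 0.15 ± 0.20 (adjusted p = 0.704). Their signals, 7.24 to 7.51 for Pax7 and 7.09 to 7.60 for Myog, lay close to the olfactory percentiles. Signals so close to background do not show that either gene was unchanged. In a list of denervation and fusion genes, 3 of 11 fell and 2 rose: Chrne (-1.58), Chrna1 (-0.91) and the ubiquitin ligase Fbxo32 (-0.77) fell, and Ncam1 (1.18) and Runx1 (0.77), both also made outside muscle, rose. Without arthritic pool 2, 1 regulator and 0 denervation genes fell, and with any 1 pool left out, 0 genes of either list rose.

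Actin and myosin genes of other cells moved otherwise. Of 13 nonmuscle cytoskeleton genes 5 rose and 0 fell (median 0.48): Actg1, Myh9 (1.08 ± 0.19), Actn1 (1.04 ± 0.17), Myl12a (1.0) and Actb. Of 12 smooth muscle genes 3 fell, 1 rose and 8 did not pass (median -0.44), against 6.62% of all genes lower and 8.72% higher. Myh11, the smooth muscle motor, read 10.03 and 9.41 in arthritic pools, against 10.98 and 11.27 in nonarthritic pools (-1.41 ± 0.23, adjusted p = 0.00576). Synpo2 (-1.41) and Tagln (-0.96) fell too, Cald1 rose (0.71), and Acta2 was at -0.29 ± 0.17 (adjusted p = 0.289). With any 1 pool left out, 0 nonmuscle cytoskeleton genes rose, and 0 smooth muscle genes fell except without arthritic pool 1, where 2 did. The falls of Myh11, Synpo2 and Tagln stand beside those of Des and Tpm2, which both kinds of muscle express. The part of smooth muscle in the values of Des and Tpm2 was not tested.

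Markers of other cells moved in both directions. Of 9 leukocyte genes 7 rose and 1 fell, and their mean log2 signal was 9.96 and 10.17 in arthritic pools, against 8.85 and 8.52 in nonarthritic pools. The pan-leukocyte gene Ptprc rose by 0.80 ± 0.17, S100a8 by 3.68, Csf3r by 3.01 and S100a9 by 2.95. All 7 measured adipocyte genes fell (median -2.55; Cidec -3.40, Plin1 -2.93, Adipoq -2.55), with a mean of 8.52 and 8.21 in arthritic pools, against 10.80 and 10.67 in nonarthritic pools. Of 6 tendon genes 3 rose and 0 fell (Scx 1.52, Kera 1.35, Thbs4 0.71), with a mean of 11.48 and 11.11 in arthritic pools, against 10.70 and 10.32 in nonarthritic pools. Of 12 synovial genes 6 rose, led by Cdh11 (1.70), Vcam1 (1.44) and Pdpn (1.19), and 3 fell, Clic5 (-2.48), Htra4 (-1.89) and Cd55 (-1.44). The adipocyte gene Adipoq read 7.21 and 6.17 in arthritic pools, against 9.15 and 9.33 in nonarthritic pools. Without arthritic pool 2, 0 leukocyte, 0 tendon and 0 synovial genes rose and 2 adipocyte genes fell. Without nonarthritic pool 1, and likewise without nonarthritic pool 2, 0 synovial genes fell. The part that a changed mix of tissue in the pools had in the fall of sarcomere genes was not tested.

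**Figure D4:**
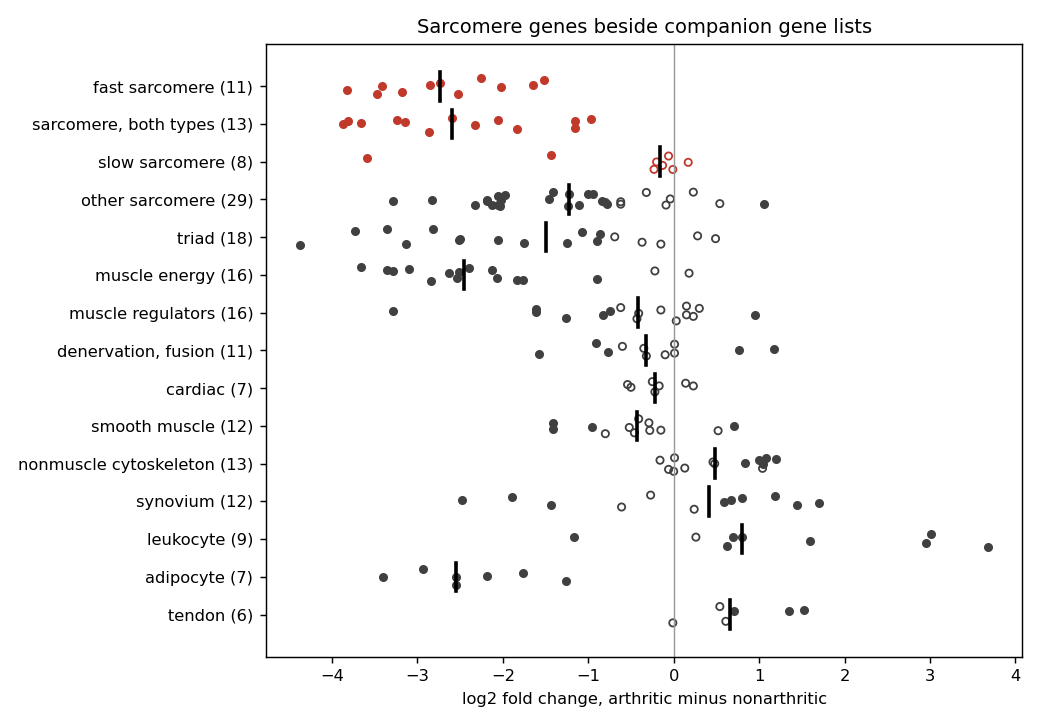
Log2 fold change, arthritic minus nonarthritic (horizontal axis), of single genes in 3 fibre classes of the sarcomere list (red) and in 12 companion lists (black), with the number of measured genes in brackets, filled points for genes past an adjusted p of 0.05 and a black bar at the median. Fast genes, genes of both fibre types, energy genes and adipocyte genes have medians between -2.73 and -2.46, while slow and cardiac genes have medians of -0.17 and -0.22.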

How the data were processed

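The deposited values are the authors' log2 signals, 1 per probe set and array. The submitters' processing notes name RMA, Affymetrix Power Tools and Affymetrix Expression Console, with no versions. That the scale is log2 follows from the range of 2.89 to 14.27. Of 41345 probe sets, 23521 had 1 gene symbol in the platform's table, 1814 had several and 16010 had none. The highest-mean probe set stood for each of 22180 genes, which favours probe sets with strong signal. Groups were compared with limma 3.58.1 in R 4.3.3 (lmFit, eBayes with a constant prior, two-sided, no block), with Benjamini-Hochberg adjustment over all 22180 genes and a threshold of 0.05. There were 2 residual degrees of freedom and a prior of 5.98. The fit was tested on simulated data. Errors of fold changes are SE from limma, and p-values measure the spread between pools, not mice. The series calls the pools biological replicates. No detection calls were used, and the number of arrays limits precision. The members and lists were chosen with earlier results of these data known. Every measured member is named, and of each companion list the 3 genes with the largest change among those called, plus fixed defining genes. Lsp1, Myh13, Tnni3 and Tnnt2 were added by position, and Obsl1, Atp2a1, Atp2a2, Six4, Runx1, Fbxo32, Myl12a, Cald1, Vcam1, Pdpn and Cd55 after their values were seen. Gadd45a and Cfd were not analysed here. Alternatives were the mean of probe sets, a filter on dim genes, other scaling, a trend in the prior, a block and each pool left out.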

Additional observations from a re-analysis of the deposited data

How the results depend on the processing

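The calls of the 28 sarcomere genes that fell were unchanged with the mean of all probe sets, with dim genes left out (which removed Myh3), with arrays centred on their medians, with quantile normalization again, with an intensity trend in the prior and with the pool number as a replicate block. Centring moved the median log2 fold change of all genes from 0.005 to 0.100. Leaving out 1 pool also leaves 1 pool in its group, which is then assumed to vary like the other group, and fewer degrees of freedom. All 28 fold changes kept their sign in each of the 4 fits. The number that fell ran from 9 (without arthritic pool 2) to 25 (without nonarthritic pool 1), and 7 passed in all 4 fits. Over all genes, 105 to 584 fell and 47 to 637 rose. The median log2 fold change of fast genes ran from -2.87 to -2.44, that of slow genes from -0.30 to -0.05, the distance between these medians from -2.81 to -2.29 and the median paralogue shift from -3.02 to -2.37. Without Mybpc1, an alternative chosen after seeing the data, the slow median was -0.13, with a range from -0.24 to 0.01 when a pool was left out. The cause of these movements was not tested. The labels give both groups pool numbers 1 and 2 without saying that they pair, and same-numbered pools had a correlation of deviations of 0.18 over all genes and -0.25 over the 39 sarcomere genes. The replicate block gave 28 falling sarcomere genes and 1216 rising genes over all, against 1933 without it. With the block 0 smooth muscle genes (against 3) and 1 denervation gene (against 3) fell. With dim genes left out, 1 cardiac gene fell.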
